A study of Mus musculus with 6 samples.

Results

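Long intergenic noncoding RNAs (lincRNAs) are spliced or single-exon transcripts of genes that lie between protein-coding genes and carry no recognised long reading frame. The 60 lincRNAs described here were those with a mean normalised read count of at least 100 over 6 RNA-seq libraries of mouse distal colon. They were taken from a table of 21374 genes, of which 925 are annotated as lincRNA in GENCODE vM21 (mouse build GRCm38). In all, 62 lincRNA genes reached that mean, and AW112010 and the imprinted gene H19 were left out by the rule. Members were thus chosen by their mean level over all libraries and not by the difference between genotypes, but 8 members reached a mean of 100 in only one genotype. Those 8 were 9130204K15Rik, Gm45397, A330035P11Rik, 3930402G23Rik, Gm19951 and Mirt1, through wild type alone, and Gm31718 and Miat, through Otud1-/- alone. Just inside the threshold stood Miat at 103.3, Gm19951 at 102.8 and Gm31718 at 100.1, and just outside it A530017D24Rik at 97.5, 1700096K18Rik at 95.3 and Gm10451 at 94.5.

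RNA-seq of 6 libraries was compared, 3 labelled Otud1-/- and 3 labelled wild type, all from male C57BL/6 mice. Otud1 encodes a deubiquitinase, an enzyme that removes ubiquitin from proteins. Mice of both genotypes were given azoxymethane, which causes colon tumours, at 6 weeks of age. They then drank 1.5% dextran sulfate sodium, a polymer that damages the gut lining, for 4 days and water for 14 days, in 3 cycles. At day 81, when the mice were 18 weeks old, the tumours were removed from the distal colon and RNA was taken from the tissue beside them. The knockout is not described further, and no untreated colon was analysed here. Total reads assigned to genes were 15300937 to 18193462 in the Otud1-/- libraries and 18002560 to 19406407 in the wild-type libraries.

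A few lincRNAs have well described roles. Neat1 and Malat1 stay in the nucleus, where Neat1 builds the paraspeckle and Malat1 gathers in nuclear speckles with splicing factors. Others act in the cytoplasm by holding proteins or microRNAs, serve as precursors from which microRNAs or small nucleolar RNAs are cut, or mark imprinted or developmental loci, and for many more no role is known.

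The Otud1 transcript went against the labels. It stood at 141, 150 and 208 normalised reads in the libraries labelled Otud1-/-, against 111, 45.1 and 48.9 in those labelled wild type. The genotypes did not overlap, and the log2 change, Otud1-/- minus wild type, was 1.37 ± 0.35 (SE). The adjusted p was 0.0934 (limma, Benjamini-Hochberg) and an exact two-sided permutation test gave 0.1, the smallest p for 3 against 3. The deleted stretch of the gene is not given, so this count neither checks nor contradicts a loss of protein, and every genotype named below is the one on the label. On the first principal component of all genes, which held 38.8% of the variance, Otud1-/- 1 stood at -83.3 and wild type 1 at 86.5, while the other 4 libraries lay between -28.2 and 25.8. The colon epithelium was present in every library: 15 epithelial marker genes together had 309169 to 490878 normalised reads in Otud1-/- and 507055 to 606590 in wild type.

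Across the well-expressed lincRNAs the differences between genotypes were mostly small. Their median log2 change, Otud1-/- minus wild type, was 0.08, against 0.02 over all tested genes, 0.21 over the less expressed lincRNAs and -0.04 over the other genes with a mean of at least 100. Of the 60 members, 40 (66.7%, beside 51.7% of all tested genes) had a positive and 20 a negative value. That excess depended on the scaling: after quantile normalisation 31 members were positive and their median was 0.01. With the deposited scaling 37 lay within 0.25 of 0, and 5 were at or beyond 1 in either direction. Of the 11533 other genes with a mean of at least 100, 6348 lay within 0.25 of 0 and 531 at or beyond 1. The median absolute log2 change was 0.20 in the members and 0.22 in those genes, so small changes were not particular to the members. All 60 passed the filter on low values. Of these 60, 1 (9130204K15Rik) passed an adjusted p under 0.05 (limma, Benjamini-Hochberg over 21281 genes), which is 1.67% of the members beside 0.949% of all tested genes (202 genes; 0.667% called lower) and 1.49% of the 11533 other genes with a mean of at least 100. The smallest adjusted p among the remaining 59 was 0.0551. DESeq2 on the recovered reads called 4 members (Meg3, 9130204K15Rik, Bvht and Gm45397), beside 6.61% of all genes, and edgeR 0 (7 at an unadjusted p under 0.05), beside 0.37%. Limma called 2 members after scaling to total reads, beside 1.95%, and 3 without Otud1-/- 1 and wild type 1, beside 1.85%. The genotypes did not overlap in 12 members, 7 higher (11.7%) and 5 lower (8.33%) in Otud1-/-, beside 13.0% higher and 13.3% lower, 26.3% in all, of the tested genes and 32.8% of the other genes at that level. Of the members lower in Otud1-/- without overlap, 9130204K15Rik (the called one), Gm45397, A330035P11Rik and 3930402G23Rik reached a mean of 100 through wild type alone. An unadjusted p under 0.05 was reached by 7 members (11.7%), beside 19.5% of all tested genes. The last 2 shares were below those of genes in general. Between libraries of one genotype the members spread by a median coefficient of variation of 19.1% in Otud1-/- and 13.7% in wild type. In the other genes with a mean of at least 100 the spread was narrower, 13.0% and 10.1%. The median SE of the log2 change was 0.21 in the members and 0.16 in those genes.

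**Figure D1:**
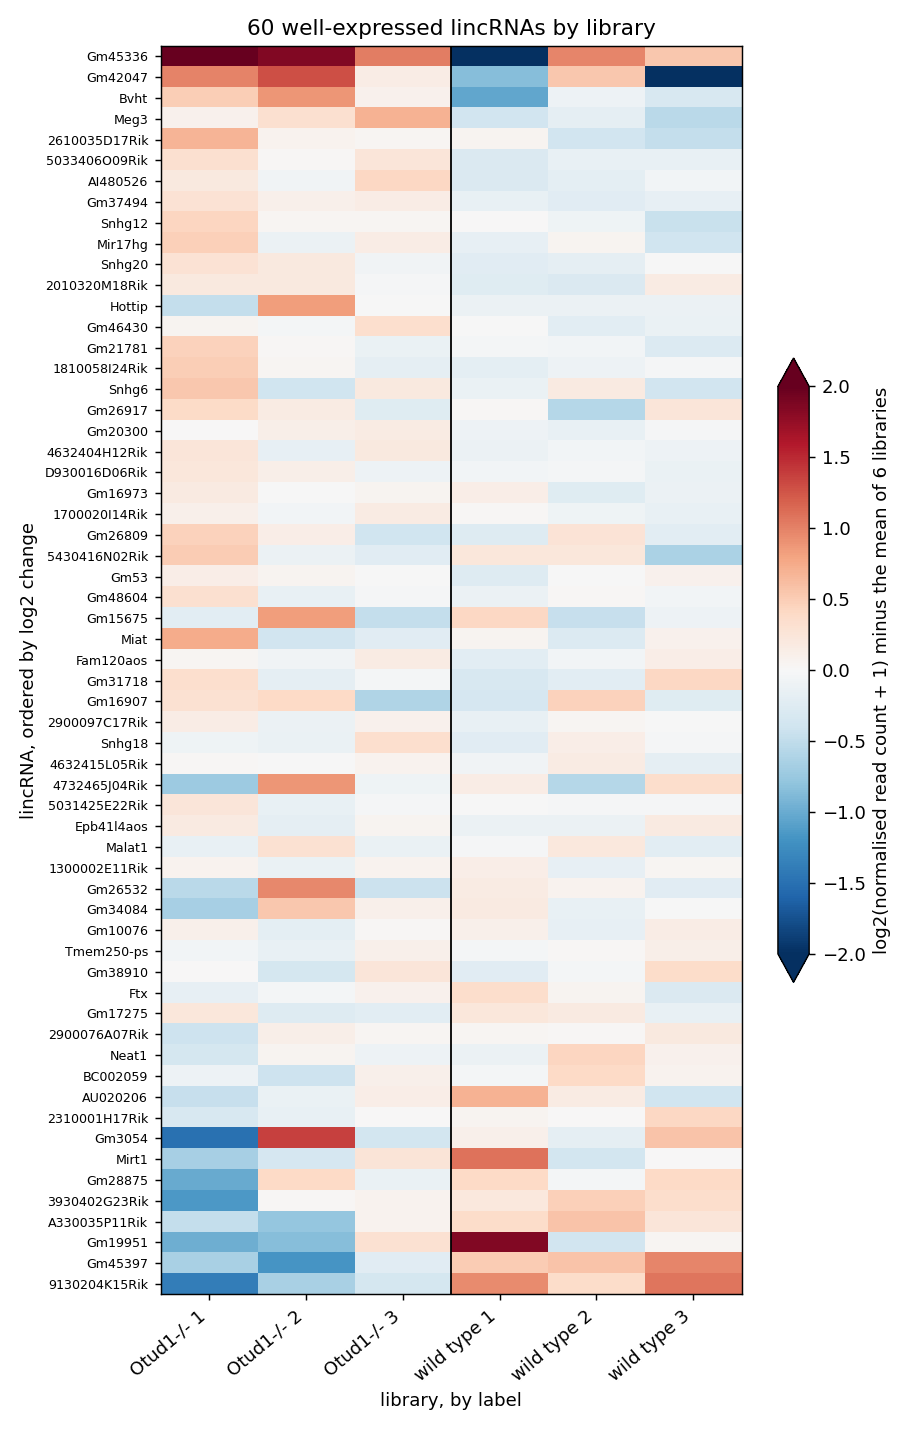
Each row is a lincRNA and each column a library, with the Otud1-/- libraries left of the line and the wild-type libraries right of it. Colour gives log2(normalised read count + 1) minus the mean of the 6 libraries of that row, with rows ordered by log2 change. Rows at the top and bottom hold the 5 changes of at least 1, the 37 within 0.25 of 0 lie in the middle, and single dark cells show members set apart by 1 library.

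**Figure D2:**
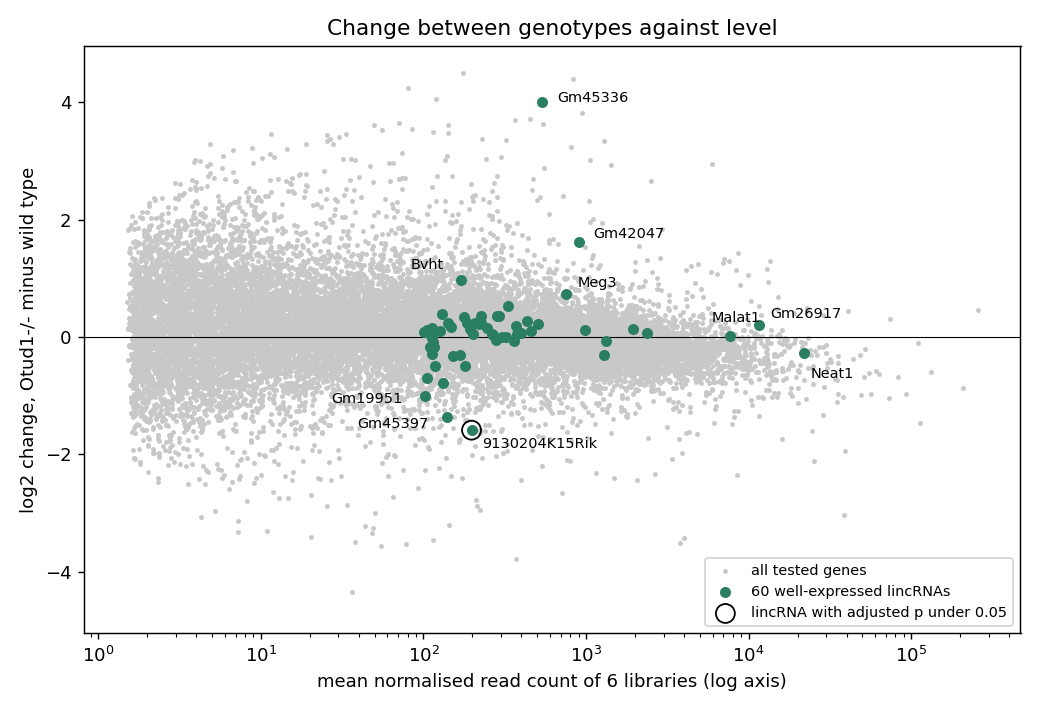
Log2 change, Otud1-/- minus wild type, against the mean normalised read count of the 6 libraries on a log axis. Grey points are all 21281 tested genes, green points the 60 lincRNAs, and the ring marks 9130204K15Rik, the member with an adjusted p under 0.05.

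The called lincRNA, 9130204K15Rik, fell in the colon labelled Otud1-/-. It is a gene of up to 5 exons on the minus strand of chromosome 11 (chr11:79781979-79872394, GRCm38), without a described role that could be given here. Its normalised read counts were 63.1, 106 and 130 in Otud1-/- and 322, 215 and 349 in wild type. The highest Otud1-/- library stayed below the lowest wild-type library. The mean was 99.7 ± 33.9 in Otud1-/- and 295 ± 70.5 in wild type (SD, n = 3 each), a log2 change of -1.59 ± 0.30 with an adjusted p of 0.0483 (limma). The nearest coding start, 89996 bp away, belongs to Utp6, a gene for a protein of ribosome assembly, whose log2 change was 0.15 ± 0.13. The call was close to the threshold. It held in 7 of 17 settings, over which the adjusted p ran between 7.3e-05 (DESeq2) and 0.188 (limma without wild type 3), and the log2 change stayed between -1.81 and -1.22. Leaving out any 1 library other than Otud1-/- 1 ended it. The first exon of the longest of its 4 annotated transcripts, 61 bases at chr11:79872334-79872394 (minus strand, read from the GENCODE transcript), is printed to identify that transcript.
9130204K15Rik first exon: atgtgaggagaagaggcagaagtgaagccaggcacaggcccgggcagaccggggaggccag

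Gm45397 came next by p and showed the same arrangement of libraries. This gene on chromosome 7 had 78.5, 54.0 and 105 normalised reads in Otud1-/-, against 176, 184 and 244 in wild type. Every Otud1-/- library lay below every wild-type library, with a log2 change of -1.37 ± 0.27 and an adjusted p of 0.0551 (limma). DESeq2 called it (0.00048), and so did limma without Otud1-/- 1 and wild type 1 (0.0464). Its nearest coding gene, Glrx3, starts 126974 bp away and had a log2 change of 0.23 ± 0.11.

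The fall of 9130204K15Rik stood beside lower sums of epithelial, goblet cell and macrophage genes in the same libraries. Every marker of the lists given here had reads in all 6 libraries. Of the 15 epithelial genes 14 had negative log2 changes; limma called 0 (10 at an unadjusted p under 0.05), edgeR 0 and DESeq2 4. The 9 goblet cell genes summed to 102082, 95180 and 110385 in Otud1-/- and 245775, 249580 and 264023 in wild type. Each of the 9 had a negative log2 change. Limma called 2 of them (8 at an unadjusted p under 0.05), edgeR 2 and DESeq2 6. The 9 macrophage and monocyte genes summed to 7932, 9699 and 7543 in Otud1-/- and 15310, 14669 and 10911 in wild type, and all 9 had negative log2 changes. Limma and edgeR called 0 of them (8 and 8 at an unadjusted p under 0.05) and DESeq2 5. The 8 B and plasma cell genes summed to between 35301 and 78512 in Otud1-/- and between 77086 and 116690 in wild type, and all 8 had negative log2 changes. Limma and edgeR called 0 of these 8 (3 and 5 at an unadjusted p under 0.05) and DESeq2 2. The sums of 8 T and NK cell genes overlapped, at 400 to 749 in Otud1-/- and 471 to 1416 in wild type. Of these T and NK cell genes 7 had negative log2 changes, and limma, edgeR and DESeq2 called 0. In tissue pieces, fewer cells of a type and less RNA per cell cannot be told apart, and the part of these markers in the lincRNA values was not tested.

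**Figure D3:**
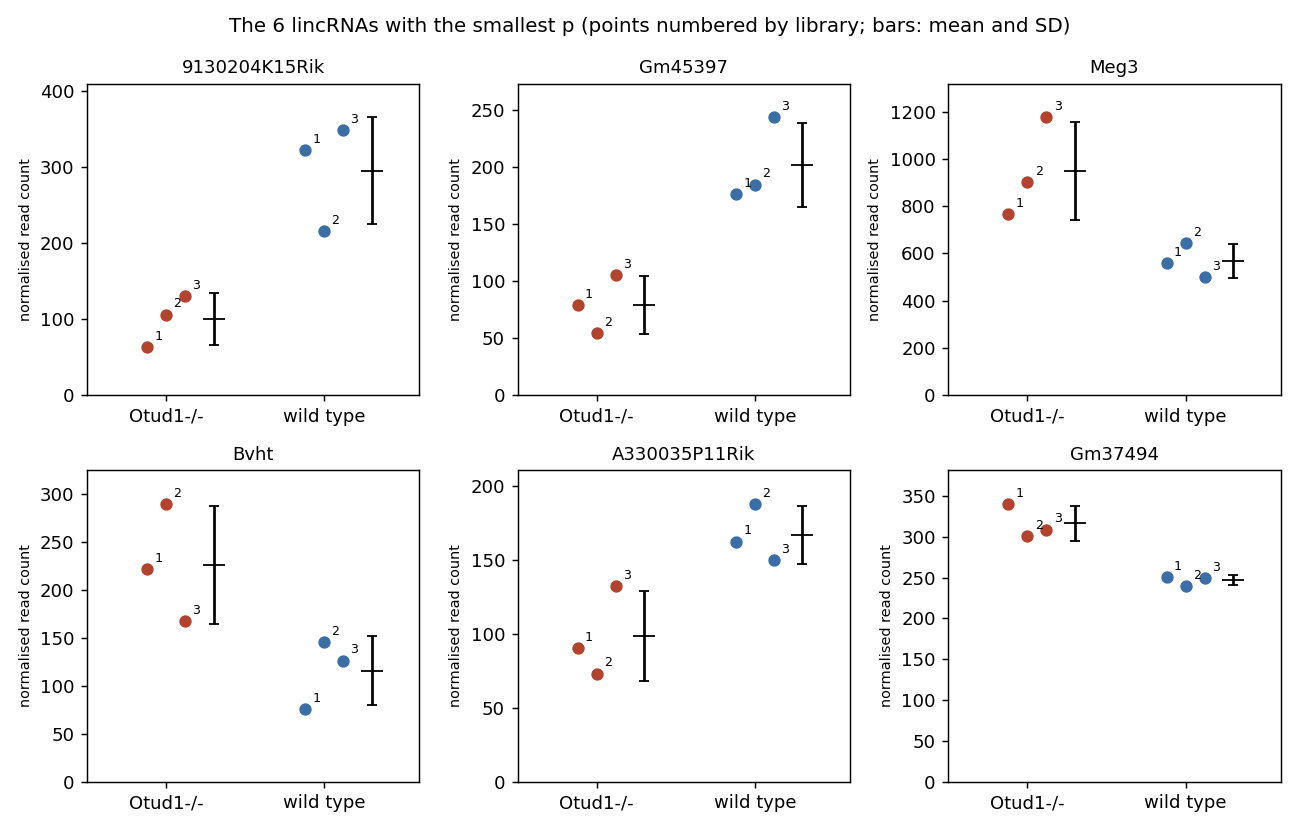
Normalised read counts of the 6 lincRNAs with the smallest p, Otud1-/- left and wild type right, with each point numbered by its library and bars giving the mean and SD (n = 3). In all 6 the genotypes do not overlap: 9130204K15Rik, Gm45397 and A330035P11Rik are lower in Otud1-/-, and Meg3, Bvht and Gm37494 higher.

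Among members with a described role, Meg3 had the smallest p. It is the maternally expressed lincRNA of the imprinted Dlk1-Dio3 cluster on chromosome 12, where several noncoding RNAs are read from the maternal and Dlk1 and Rtl1 from the paternal chromosome. Meg3 had 766, 902 and 1178 normalised reads in Otud1-/- and 557, 642 and 501 in wild type. Each Otud1-/- library exceeded each wild-type library, and the log2 change was 0.73 ± 0.17 with an adjusted p of 0.0789 (limma). It was called in 4 of 17 settings: by DESeq2 (0.0116), after scaling to total reads (0.0341), without Otud1-/- 1 (0.0294) and without Otud1-/- 1 and wild type 1 (0.0329). The RefSeq span of Rtl1 overlaps Meg3. Among the other transcripts of the cluster 4 were examined, and each had a positive log2 change. Rian, a noncoding RNA further along the same strand, had 224, 298 and 324 normalised reads in Otud1-/- and 168, 184 and 126 in wild type, without overlap, a log2 change of 0.82 ± 0.21 (adjusted p = 0.0978, limma). Mirg, the last noncoding RNA of the cluster, stood at 15.4, 24.8 and 10.1 in Otud1-/- and at 8.4, 10.3 and 8.2 in wild type, with a log2 change of 0.75 ± 0.44. Dlk1 had 84.5, 70.9 and 60.5 in Otud1-/- and 68.6, 34.8 and 28.6 in wild type, with overlap between the genotypes and a log2 change of 0.79 ± 0.35. None of these 5 transcripts passed limma's threshold, Rtl1 among them with at most 4.04 normalised reads in any library and a log2 change of 0.66 ± 0.63.

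Bvht, known as Braveheart from mouse embryonic stem cells, where it is needed for heart muscle commitment, also did not overlap. Its normalised read counts were 222, 290 and 168 in Otud1-/- and 75.9, 146 and 126 in wild type, a log2 change of 0.98 ± 0.29 (adjusted p = 0.126, limma). DESeq2 called it (0.0313). On the same stretch of chromosome 18 lies Carmn, the host of the smooth muscle microRNAs miR-143 and miR-145, which at a mean of 38.0 was under the threshold of the rule. Carmn had 28.2, 70.9 and 48.4 in Otud1-/- and 11.6, 43.3 and 25.5 in wild type, with overlap and a log2 change of 0.94 ± 0.51. Smooth muscle genes were higher in the same libraries. A list of 10 summed to 61185, 125882 and 92772 in Otud1-/- and 39505, 40892 and 37057 in wild type, and had a median log2 change of 1.15. Limma called 3 of the 10, all higher, DESeq2 9 and edgeR 0 (10 at an unadjusted p under 0.05). Bvht and the muscle sum were both highest in Otud1-/- 2, but within Otud1-/- Bvht was lowest in library 3 and the muscle sum in library 1. Muscle was not the only list that was higher. All 7 enteric neuron and glia genes had positive log2 changes, with sums of 980 to 1145 in Otud1-/- and 660 to 935 in wild type. Limma and edgeR called 0 of these 7 (1 and 2 at an unadjusted p under 0.05), as did DESeq2. Fibroblast genes were split, 3 positive and 3 negative, and endothelial genes 2 and 2. The part of muscle or other cell content in the Bvht values was not tested.

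Gm45336 and Gm42047 had larger log2 changes than Bvht, and both varied widely within each genotype. Gm45336, 2 exons on chromosome 8, had 1595, 655 and 367 normalised reads in Otud1-/- and 0, 356 and 264 in wild type. Wild type 1 held no read of it, which allows up to 3.16 normalised reads there (3 reads, counting error only). The highest wild-type library lay just below the lowest Otud1-/- library. Its log2 change of 4.00 ± 2.63 (adjusted p = 0.472, limma) leaned on that empty library: it was 1.24 without wild type 1 and 0.68 without wild type 1 and Otud1-/- 1. The nearest coding gene is Irx5, a homeobox transcription factor, whose start is 108142 bp away. Irx5 had 64.0, 65.2 and 23.2 in Otud1-/- and 0, 34.8 and 14.3 in wild type, so it too had no read in wild type 1. A list of 9 stem cell and Wnt target genes (among them Lgr5, Axin2 and Notum) summed to 23504, 8673 and 6529 in Otud1-/- and 1018, 4559 and 3881 in wild type. That sum and Gm45336 put the 6 libraries in the same order, which was also their order on the first principal component of all genes. Otud1-/- 1, 2 and 3 stood there at -83.3, -28.2 and -22.7, and wild type 2, 3 and 1 at 22.0, 25.8 and 86.5. The shared order was thus not particular to Gm45336 and this list. All 9 genes of the list had positive log2 changes. Limma called 0 of them (3 at an unadjusted p under 0.05), edgeR 0 and DESeq2 4. Their part in the Gm45336 values was not tested.

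**Figure D4:**
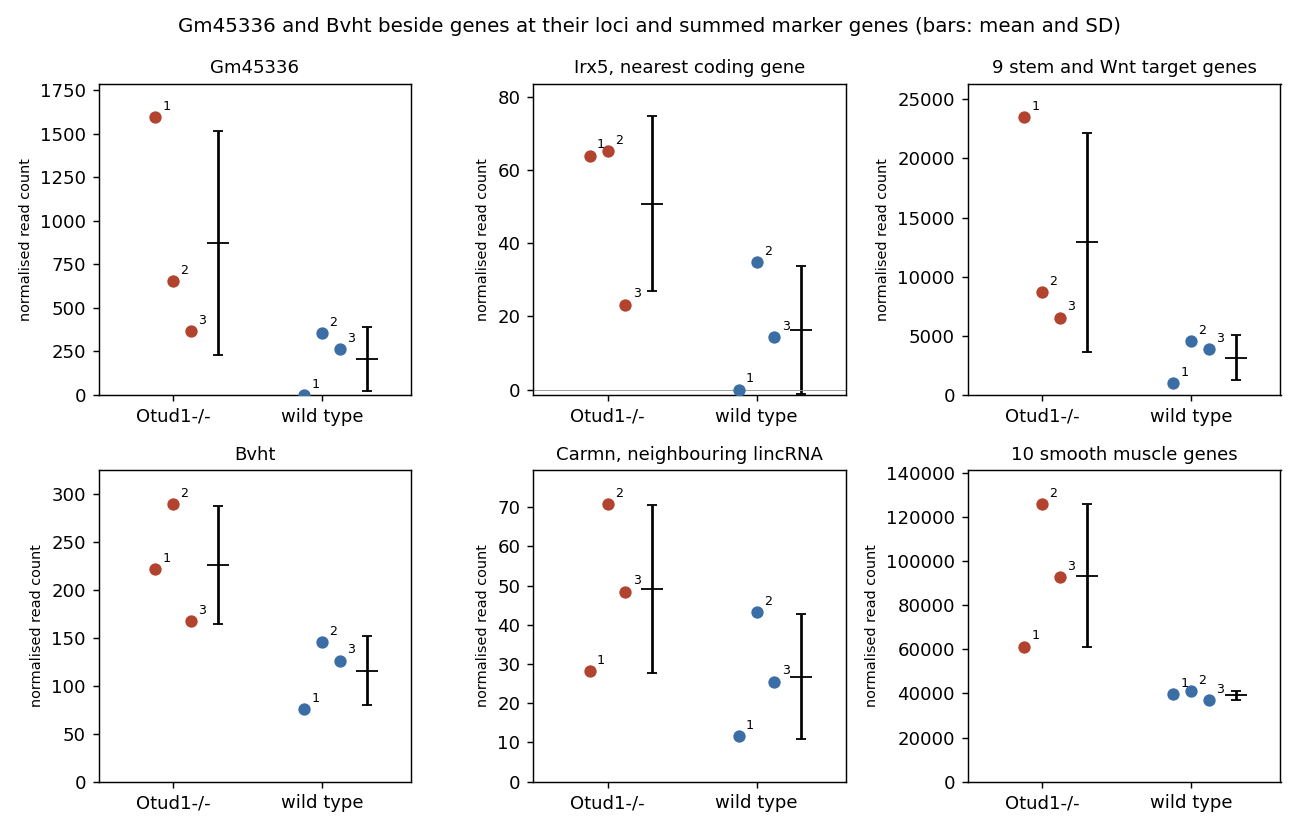
Normalised read counts by library, Otud1-/- left and wild type right, with bars for the mean and SD (n = 3). The upper row shows Gm45336, Irx5 and the sum of 9 stem and Wnt target genes, all lowest in wild type 1. The lower row shows Bvht, Carmn and the sum of 10 smooth muscle genes, all highest in Otud1-/- 2.

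Gm42047, also on chromosome 8, had 1394, 1716 and 775 normalised reads in Otud1-/- and 386, 1014 and 161 in wild type. The genotypes overlapped, since wild type 2 exceeded Otud1-/- 3, and the log2 change was 1.62 ± 0.75 (adjusted p = 0.327, limma). It overlaps Gm20388, a coding annotation on the same strand, so the reads may belong to either. On the other side of 0, Gm19951 had 40.1, 43.9 and 98.9 in Otud1-/- and 291, 61.1 and 81.6 in wild type, a log2 change of -1.01 ± 0.64 (adjusted p = 0.433). Its difference came mainly from wild type 1 and was -0.33 without that library.

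The starts of 8 members lie within 2000 bp of a coding gene on the other strand, an arrangement in which one promoter region is read in both directions. In 1 of the 8 pairs both partners were lower in Otud1-/- without overlap. A330035P11Rik had 90.5, 73.1 and 132 normalised reads in Otud1-/- and 162, 188 and 150 in wild type, a log2 change of -0.79 ± 0.25 (adjusted p = 0.142, limma). Tm9sf2, which encodes a membrane protein of the endosomal and Golgi system, starts 64 bp away and had 6149, 6704 and 9083 in Otud1-/- and 11884, 11557 and 11527 in wild type. Its log2 change was -0.69 ± 0.15 (adjusted p = 0.0685). Within Otud1-/- both partners were highest in library 3. The RefSeq promoter window of A330035P11Rik (GRCm38.p6, chr14:122106925-122107224, minus strand) is printed because it holds the starts of both genes; capitals mark the 64 bases between them.
A330035P11Rik promoter: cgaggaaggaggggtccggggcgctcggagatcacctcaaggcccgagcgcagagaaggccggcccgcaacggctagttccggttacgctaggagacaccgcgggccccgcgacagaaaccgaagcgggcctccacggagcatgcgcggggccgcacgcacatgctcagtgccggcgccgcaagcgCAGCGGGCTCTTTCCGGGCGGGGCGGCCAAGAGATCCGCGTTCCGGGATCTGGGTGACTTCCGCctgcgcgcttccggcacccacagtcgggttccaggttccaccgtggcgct
Searched on both strands, the window held 2 matches to GGGCGG, a GC box sequence found in 35.66% of 32851 promoters of the same length. It held no match to CCAAT (37.41% of promoters), TATAAA (13.62%) or CACGTG (7.15%).

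In the other 7 pairs the lincRNA had a positive log2 change, between 0.04 and 0.36, and in 6 of them the coding partner had a negative one. These signs held with DESeq2 and edgeR but depended on the scaling: a positive lincRNA stood beside a negative partner in 4 pairs after quantile normalisation and in 1 after scaling to total reads. The lincRNA's value was above its partner's in 6, 5 and 6 of the 8 pairs with the deposited scaling, quantile normalisation and total reads. AI480526 had 254, 211 and 295 normalised reads in Otud1-/- and 181, 193 and 214 in wild type, a log2 change of 0.36 ± 0.18 (adjusted p = 0.313, limma), with overlap between the genotypes. Its partner Setd1b, a histone H3 lysine methyltransferase gene, had a log2 change of -0.15 ± 0.16. 5031425E22Rik stood at 0.04 ± 0.14 and its partner Kmt2e, another gene of the methyltransferase family, at -0.34 ± 0.13. Snhg18 and Sema5a, a semaphorin gene, shared their sign, at 0.07 ± 0.17 and 0.45 ± 0.14. Limma called 0 of the 8 partners (3 at an unadjusted p under 0.05), edgeR 0 and DESeq2 1. Of the 54 members whose nearest coding gene was tested, 31 had the same sign as that gene, and limma called 0 of the 54 neighbours. The smallest adjusted p among these neighbours was 0.0595 (limma), for Spry2, whose start is 214991 bp from that of Gm10076. At an unadjusted p under 0.05 there were 10 neighbours, and edgeR called 0 and DESeq2 3. Over all tested genes 19.5% reached that unadjusted p with limma. The shares called were 0.949% by limma, 0.37% by edgeR and 6.61% by DESeq2.

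**Figure D5:**
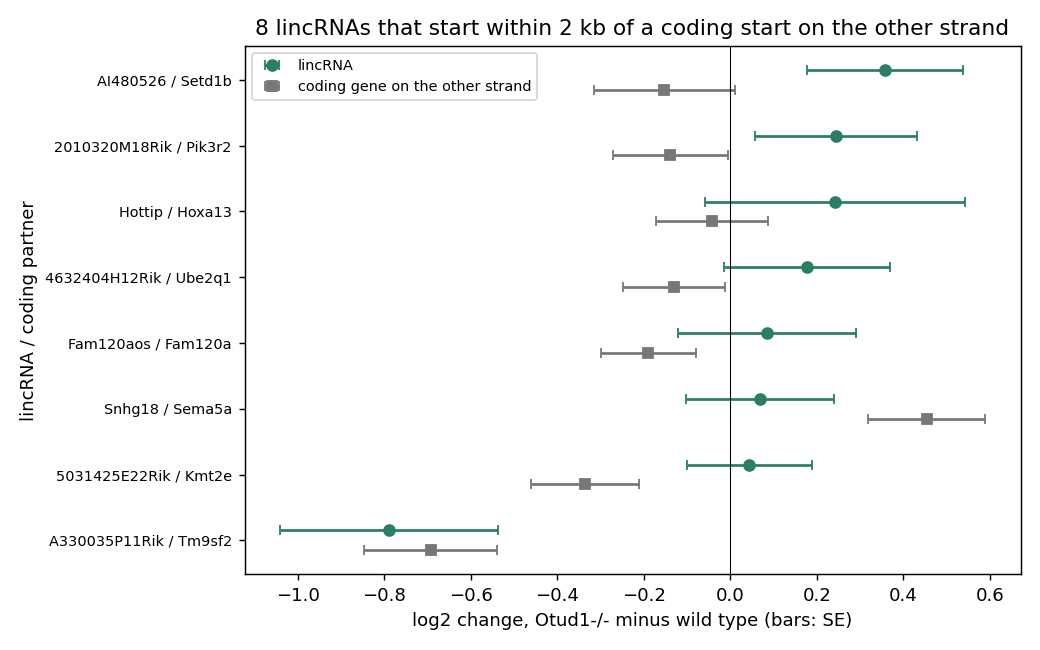
Log2 change, Otud1-/- minus wild type, of 8 lincRNAs (circles) and the coding genes that start within 2000 bp on the other strand (squares), with bars for the SE. A330035P11Rik and Tm9sf2 lie together below 0, and in 6 pairs the lincRNA is above 0 and its partner below, which became 1 pair after scaling to total reads.

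Most of the lincRNA signal came from 3 abundant RNAs whose genotypes overlapped. Neat1, Gm26917 and Malat1 together held 66.7% of the normalised reads of the 60 members (63.2% to 69.7% over the libraries). Neat1 had 16769, 22178 and 20103 normalised reads in Otud1-/- and 19893, 28895 and 22761 in wild type, with overlap and a log2 change of -0.27 ± 0.17 (adjusted p = 0.421, limma) that became 0.08 after quantile normalisation. Malat1, its neighbour on chromosome 19, had 6859, 9380 and 6893 in Otud1-/- and 7482, 8775 and 6576 in wild type, a log2 change of 0.01 ± 0.16 that became 0.25 with quantile-normalised values and 0.22 with values per total reads. Both were highest in library 2 of their genotype. Gm26917 had 14813, 12680 and 9550 in Otud1-/- and 11528, 7610 and 13346 in wild type, a log2 change of 0.21 ± 0.24 that became 0.46 after quantile normalisation. Per kb of exon it was the most abundant member, at a mean of 3481 normalised reads per kb, ahead of Malat1 at 1097, Neat1 at 1048, Gm10076 at 728 and Epb41l4aos at 619. The order of Malat1 and Neat1 was the reverse in wild type 2 (1257 and 1391) and wild type 3 (942 and 1096). Gm26917 lies in a stretch of chromosome 17 that resembles ribosomal RNA precursor sequence, and its longest transcript had the highest GC content of the 60, 69.1%, against a median of 48.0%. Reads of ribosomal RNA in its count cannot be told apart here.

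The 60 lincRNAs took 0.392%, 0.383% and 0.352% of all reads in Otud1-/- and 0.308%, 0.356% and 0.316% in wild type. Without those 3 RNAs the other 57 took 0.144%, 0.126% and 0.128% in Otud1-/- and 0.103%, 0.108% and 0.0961% in wild type. Leaving out Gm45336 and Gm42047 too, the remaining 55 took 0.125%, 0.112% and 0.121% in Otud1-/- and 0.101%, 0.1003% and 0.0939% in wild type, so every Otud1-/- library lay above every wild-type library. A share of all reads is not the scale of the fit: with scaling to total reads the median over all tested genes was 0.22 on the log2 scale and that of the 60 members 0.29.

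The cytoplasmic RNAs Norad and Oip5os1 had genotypes that overlapped. Norad, annotated as 2900097C17Rik, is a single-exon RNA that binds Pumilio proteins through repeated sites and so limits their repression of mRNAs for genome maintenance. It had 2637, 2187 and 2521 normalised reads in Otud1-/- and 2158, 2442 and 2376 in wild type, a log2 change of 0.07 ± 0.12 (adjusted p = 0.779, limma) that became 0.26 with quantile-normalised values and 0.28 with values per total reads. The highest library was in Otud1-/- and the lowest in wild type. Its transcript held 11 matches to the Pumilio sequence TGTANATA, searched on the transcript strand with overlaps counted, the most of any member. Of the longest transcript of each member, 23 (38.3%) held at least 1 match, beside 137 of the 865 other lincRNAs (15.8%), whose transcripts differ in length; per kb the figures were 0.178 and 0.116, and 0.128 for the 59 members other than Norad. For Norad 3 of the matches are printed, from chr2:156392311-156392340, chr2:156391815-156391844 and chr2:156390208-156390237 (GRCm38, minus strand), with the match in capitals.
Norad Pumilio match 1: tagaagtcctgTGTATATAatatgaaaaag
Norad Pumilio match 2: agtaaacatgcTGTAAATAcctttttgtta
Norad Pumilio match 10: cagtactactaTGTATATAggggacaaatt

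Oip5os1, or Cyrano, annotated as 1700020I14Rik, is known for a site of extended pairing with miR-7 that leads to the decay of that microRNA. It had 2078, 1853 and 2158 normalised reads in Otud1-/- and 1960, 1812 and 1735 in wild type, a log2 change of 0.14 ± 0.11 (adjusted p = 0.510, limma) that became 0.31 with quantile-normalised values and 0.35 with values per total reads. Its transcript held 2 matches to GTCTTCC, the complement of the miR-7a seed, searched on the transcript strand. At least 1 match was held by 14 of the 60 members and 138 of the 865 other lincRNAs, whose transcripts differ in length. Per kb the figures were 0.092 in the members and 0.102 in the others. At the second site, pairing went beyond the seed: miRNA positions 11 to 23 were complementary to an unbroken run of 13 bases upstream, against a longest run of 3 bases at the first. The mature RefSeq sequence is printed with its seed in capitals, and both sites (chr2:119599942-119599971 and chr2:119602132-119602161, GRCm38, plus strand) with the seed match and the longest upstream run in capitals.
mmu-miR-7a-5p: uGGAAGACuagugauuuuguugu
Oip5os1 miR-7a site 1: gACTtcaggttttttttttaatGTCTTCCa
Oip5os1 miR-7a site 2: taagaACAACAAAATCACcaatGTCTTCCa
miR-7a itself was not measured in these libraries.

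Miat, a nuclear RNA with repeats of the sequence ACTAAC that bind splicing factors, stood near the threshold of the rule with 167, 76.5 and 84.8 normalised reads in Otud1-/- and 103, 81.8 and 106 in wild type. Otud1-/- 1 was high and the other 5 libraries lay between 76.5 and 106, so the log2 change of 0.09 ± 0.31 (adjusted p = 0.905, limma) became -0.26 without that library. The Miat transcript held 11 matches to ACTAAC, the most of any member. At least 1 was held by 15 of the 60 members and 192 of the 865 other lincRNAs. Per kb the figures were 0.145 in the members and 0.152 in the others. A pair of neighbouring matches shows the repeat (chr5:112217332-112217361 and chr5:112217307-112217336, GRCm38, minus strand).
Miat ACTAAC match 3: cgagcatgtcctACTAACcccgcagcagcc
Miat ACTAAC match 4: cagccaaaccctACTAACtctgcaggccag

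Of the members, 6 carry small nucleolar RNA genes on their own strand, RNAs that guide chemical changes of ribosomal RNA and are cut from the introns of their hosts. Positive log2 changes, between 0.04 and 0.35, were found in 5 of them, Snhg12, Snhg20, Snhg6, Snhg18 and Epb41l4aos. That count was 4 with quantile-normalised values, 6 with values per total reads and 3 to 5 without 1 library, with 3 when wild type 1 was left out. Limma called 0 of the 6 (smallest adjusted p 0.334; 0 at an unadjusted p under 0.05), as did edgeR and DESeq2. Snhg12, which holds 5 such genes, had 389, 297 and 297 normalised reads in Otud1-/- and 289, 271 and 211 in wild type, a log2 change of 0.35 ± 0.18. Its genotypes did not overlap, though by a narrow margin, and Otud1-/- 1 was the highest library. Snhg20 had 523, 493 and 406 in Otud1-/- and 365, 379 and 426 in wild type, with overlap and a log2 change of 0.27 ± 0.15. Snhg6 stood at 0.23 ± 0.26, Snhg18 at 0.07 ± 0.17 and Epb41l4aos at 0.04 ± 0.17. The other host, 2900076A07Rik, whose small gene is also annotated as Mir1839, had a log2 change of -0.17 ± 0.22. The small RNAs were hardly seen: the 3 that the table lists, Snord87, Snord123 and Gm23639, had at most 13.5 normalised reads in any library. Genes of the translation machinery and their snoRNA hosts are known for transcripts that begin with a run of pyrimidines. RefSeq promoter sequences of 4 hosts were at hand, and 2 of them began with at least 5 pyrimidines, beside 4.44% of all 32851 promoters. The 30 bases around each start (GRCm38.p6) show this, with the run of C and T from the annotated start in capitals; Snhg20 has none.
Snhg12 start: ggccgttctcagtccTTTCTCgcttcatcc
Snhg18 start: accttcccaggccccTCCTCTagccccgcc
2900076A07Rik start: gaagccggaagtggaCTCattttccaccgg
Snhg20 start: cttcagttccggccggaagtgcatttgcag
These lie at chr4:132308663-132308692 (plus strand), chr15:32244648-32244677 (minus), chr7:81523535-81523564 (plus) and chr11:117076768-117076797 (plus).

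Mir17hg is the precursor of the miR-17-92 cluster, a group of 6 microRNAs on chromosome 14 that Myc activates and that promote proliferation in many tumours. It had 242, 161 and 194 normalised reads in Otud1-/- and 156, 181 and 133 in wild type. The genotypes overlapped, with Otud1-/- 1 the highest library, and the log2 change was 0.34 ± 0.21 (adjusted p = 0.421, limma). Of its RefSeq mature sequences, 1 arm of each microRNA is printed, by shared seed (bases 2 to 8, in capitals), since microRNAs with one seed share targets. miR-17 and miR-20a share AAAGUGC, miR-19a and miR-19b share GUGCAAA, and miR-18a and miR-92a have seeds of their own.
mmu-miR-17-5p: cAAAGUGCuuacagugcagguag
mmu-miR-20a-5p: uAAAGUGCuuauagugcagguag
mmu-miR-18a-5p: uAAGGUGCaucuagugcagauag
mmu-miR-19a-3p: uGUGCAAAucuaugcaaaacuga
mmu-miR-19b-3p: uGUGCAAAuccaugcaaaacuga
mmu-miR-92a-3p: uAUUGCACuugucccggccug
Ftx, a noncoding gene of the X-inactivation centre and host of Mir374b and Mir421, had 99.8, 109 and 120 normalised reads in Otud1-/- and 145, 117 and 91.8 in wild type. All Otud1-/- values lay inside the wild-type range, with a log2 change of -0.08 ± 0.23 (adjusted p = 0.886).

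Hottip and Gm53 sit in Hox clusters, whose genes set position along the gut. Hottip, the lincRNA at the tip of the HoxA cluster that in human cells keeps the neighbouring HOXA genes active, had 128, 318 and 178 normalised reads in Otud1-/- and 163, 164 and 163 in wild type. The 3 wild-type libraries were almost identical, while Otud1-/- 2 was at least 1.5 times the other Otud1-/- libraries, and the log2 change was 0.24 ± 0.30. Hoxa13, whose start is 1895 bp away, had 659, 843 and 758 in Otud1-/- and 705, 817 and 797 in wild type, with a log2 change of -0.04 ± 0.13. Gm53, between Hoxb13 and Hoxb9 on chromosome 11, had 1074, 1010 and 970 in Otud1-/- and 819, 976 and 1038 in wild type, a log2 change of 0.11 ± 0.12. Neither Hox lincRNA was called by limma.

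The remaining members with a small p have no role that could be named. Gm37494 was the steadiest of them, with 340, 300 and 309 normalised reads in Otud1-/- and 251, 240 and 250 in wild type. All Otud1-/- libraries lay above all wild-type libraries, but the shift was small, a log2 change of 0.36 ± 0.14 (adjusted p = 0.217, limma). RefSeq lists it as the coding gene Gm33989. 5033406O09Rik had 161, 130 and 152 in Otud1-/- and 105, 117 and 116 in wild type, likewise without overlap, a log2 change of 0.39 ± 0.19 (adjusted p = 0.312). 2610035D17Rik had 518, 339 and 331 in Otud1-/- and 333, 247 and 230 in wild type, with a narrow overlap and a log2 change of 0.54 ± 0.22 (adjusted p = 0.220). Its highest library was Otud1-/- 1. 3930402G23Rik had 44.4, 101 and 104 in Otud1-/- and 115, 139 and 127 in wild type, without overlap. Its log2 change of -0.70 ± 0.33 (adjusted p = 0.284) was -0.30 without Otud1-/- 1.

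Several members were set apart by 1 library of their genotype. In Otud1-/- 2, Hottip, Gm3054, Gm15675, 4732465J04Rik and Gm26532 were each at least 1.5 times both other Otud1-/- libraries, which is 8.33% of the members beside 3.62% of the other genes with a mean of at least 100. In Otud1-/- 1, 4 members (6.67%, beside 4.50%) stood as far above both other Otud1-/- libraries and 6 (10%, beside 6.04%) as far below. Gm45336 among the high ones, and 9130204K15Rik (the called member) and 3930402G23Rik among the low ones, also had genotypes that did not overlap. Gm3054 had 44.4, 328 and 98.9 normalised reads in Otud1-/- and 137, 112 and 190 in wild type. It overlaps the RefSeq span of the mucin gene Muc3, which had 28806, 68122 and 54284 in Otud1-/- and 68581, 65060 and 80103 in wild type, also lowest in Otud1-/- 1 and highest in Otud1-/- 2 within that genotype. Gm15675 had 374, 768 and 309 in Otud1-/- and 573, 314 and 404 in wild type, and overlaps the RefSeq span of Cd55, a complement regulator, which had 1179, 2494 and 1202 in Otud1-/- and 1778, 1781 and 1725 in wild type. Cd55 and Gm15675 were thus both highest in Otud1-/- 2, and their reads may be shared. Otud1-/- 1 held the highest value of the 6 libraries for 23 members (38.3%, beside 26.7% of the other genes at that level) and the lowest for 14 (23.3%, beside 28.9%).

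The label of lincRNA held for most members but not all. RefSeq lists 40 of the 60 as long noncoding RNAs, 5 as coding (Tmem250-ps, 1810058I24Rik, Gm37494, D930016D06Rik and Gm46430) and 2 as pseudogenes (Gm10076 and 4632415L05Rik), and 13 had no name match. Of these, 1810058I24Rik encodes a short mitochondrial membrane protein and had 696, 507 and 438 normalised reads in Otud1-/- and 431, 461 and 486 in wild type, a log2 change of 0.23 ± 0.17 with overlap. In GENCODE, 50 members are spliced and 10 have a single exon, and a coding gene overlaps 7 members, 4 of them on the same strand, including 1300002E11Rik, whose start is 28 bp from that of Map3k13. In RefSeq the span of another coding gene overlaps 12 members, introns included, which makes 13 by either source. Among these were Meg3 (Rtl1), AI480526 (Rhof), 5031425E22Rik (Kmt2e) and Gm20300 (Hint3). Whether reads were counted by strand is not given in the sources used here, so the reads of these members cannot be separated from those of their partners.

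The excluded AW112010 shows what a change well past the spread looked like in the same class. This interferon-responsive RNA had 1596, 1597 and 1684 normalised reads in Otud1-/- and 4911, 4488 and 4668 in wild type, a log2 change of -1.53 ± 0.10 (adjusted p = 0.00089, limma). Its fall was about as large as that of 9130204K15Rik, for which the standard error was 0.30.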

How the data were processed

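The authors deposited 1 table of normalised signal per gene, made with build mm10 (per the submitters' processing notes). How reads were aligned and counted, on which strand and with which annotation, is not given in the sources used here. In each library the values were whole multiples of 1 step, so whole reads were recovered for 100% of values (tolerance 0.001 of a read), and the steps were the reciprocals of median-of-ratios size factors. Values are hence named normalised read counts.

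IDs were matched without version to GENCODE vM21 (21336 of 21374; 38 unmatched). A gene was tested if 3 or more libraries reached a value of 1 (21281 genes; 93 left out), with limma 3.58.1 (R 4.3.3; lmFit, eBayes with trend and robust, two-sided) on log2(value + 1), a scale that understates changes of low genes. Benjamini-Hochberg adjustment ran over all tested genes, and a call is an adjusted p under 0.05. On recovered reads, edgeR 4.0.16 (quasi-likelihood, TMM) called 62 of 16742 genes and DESeq2 1.42.0 called 1413.

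The labels do not say whether libraries came from separate animals, so the p-values rest on the spread among the 6 libraries, part of which may be technical. The members, gene lists and tests were chosen with earlier results of these data known. Named members were those called, the 10 with the smallest p, the 5 largest log2 changes in each direction, the 5 highest per kb, those on a list of RNAs with a described role, and those at the threshold. Other members (Hottip, Gm53, Gm3054, Gm15675, 4732465J04Rik, Gm26532, 1810058I24Rik, 1300002E11Rik, 5031425E22Rik, Gm20300 and 2900076A07Rik), the genes beside members and the other transcripts of the Meg3 cluster were named after their values were seen. Sequences came from RefSeq tables (GRCm38.p6; 37 members had a promoter entry) and GENCODE transcripts (GRCm38), with motifs searched on the longest transcript of each lincRNA. Sequences of members on chromosome 18 are not reported here.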

Additional observations from a re-analysis of the deposited data

How the results depend on the processing

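The number of members called, 1, moved with the test used and with the libraries kept. It was 4 with DESeq2 (Meg3, 9130204K15Rik, Bvht and Gm45397), 3 without wild type 1 and Otud1-/- 1 together (Meg3, 9130204K15Rik and Gm45397), 2 after scaling to total reads (Meg3 and 9130204K15Rik), and 0 with edgeR, with a filter at a mean of 5, with a pseudocount of 0.1, with limma without trend and robust, and for members with a mean of at least 200. Leaving out 1 library gave 0 to 2: 2 without Otud1-/- 1 (Meg3 and 9130204K15Rik) and 0 without any other. Over all genes, 202 calls became 1413 with DESeq2, 62 with edgeR, 122 with the filter at 5, 118 with a pseudocount of 0.1, 0 with limma without trend and robust, 416 after scaling to total reads, 393 without wild type 1 and Otud1-/- 1, and 10 to 351 without 1 library. The median log2 change of the members, 0.08, was 0.06 to 0.13 without 1 library, 0.01 after quantile normalisation (31 rather than 40 members positive) and 0.29 after scaling to total reads, where that of all genes was 0.22. Same-numbered libraries deviated against each other (correlations of -0.26, -0.10 and -0.09). These values showed no shared shift by number, but they cannot exclude pairing, which the labels do not give. The replicate block left 18 genes and 0 members called. No member passed the threshold with the opposite sign. With 3 libraries a genotype, the median SE of a member's log2 change was 0.21. The causes of these shifts were not tested.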
